A study of Canis lupus familiaris with 20 samples.

Results

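The cytosolic ribosomal protein genes are those whose symbol begins with RPL (large subunit) or RPS (small subunit) and a number, without the RPS6K kinases. Of the 1045 genes named on the canine array, 3 that met this rule are described here: RPL23 (probe A_11_P0000019822), RPL27 (A_11_P050461, printed in 5 spots, and A_11_P184853, printed in 1 spot) and RPS18 (A_11_P050336). They were represented by 4 of 43603 probes. RPS19, which served the study as a reference gene for qPCR, was not analysed here.

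The cytosolic ribosome joins a small subunit, which reads the mRNA, with a large subunit, which forms the peptide bond. Each subunit is built of rRNA and many proteins, which growing cells make in matched amounts. In vertebrates the mRNAs of ribosomal proteins are among the most abundant of the cell, and MYC is a known activator of ribosome production.

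Cancer cells of 5 canine mammary lines were each grown for at least 72 h with macrophages. CMT-W1 and CMT-W2 came from adenocarcinomas, P114 from an anaplastic cancer, CMT-U27 from a simple carcinoma and CMT-U309 from a spindle-cell tumour of the mammary gland. The macrophages were CD64-positive monocytes sorted from blood of healthy dogs, which differentiated partially during the culture, and the cancer cells were stained with CMTMR so that flow cytometry could part them from unstained macrophages. Each sorted population was compared with mono-cultured cells of its own kind on 2 two-colour Agilent arrays with the dyes exchanged, which gave 20 arrays and 10 dye-swap pairs. A pair counted as 1 replicate, so n = 5 for each cell type. GEO's labels name the dye-swapped arrays as biological replicates, which they were not taken to be here. How many separate mono-cultures of macrophages were made is not stated, so their spread may be technical in part. If they were 1 culture, the macrophage ratios share their denominator and are not independent pairs. Co-cultured cells were trypsinised and sorted while mono-cultures were scraped, and the effect of the harvest cannot be told apart from that of the co-culture.

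The sorted populations were checked with macrophage markers (11 probes of 9 genes) before the ribosomal protein genes were read. In mono-culture the summed marker signal lay between 733300 and 996600 in the macrophages and between 1144 and 24190 in the cancer cells. After co-culture it lay between 61520 and 272500 in the sorted macrophages and between 17220 and 546000 in the sorted cancer cells, so that the populations overlapped. All 11 probes fell in the macrophages (median log2 ratio -3.66), where 25.9% of all probes were called lower. All 10 probes tested rose in the cancer cells (median 4.72), where 6.28% of all probes were called higher. CD163, CD80, CD86, C5AR1, CTSS and ADGRE1 (there named EMR1) were already in the study's list of genes raised in cancer cells. C5AR1 and CD86 were also in its list of genes lowered in macrophages, and both lists were drawn from these same arrays. Every marker probe was well above background on 7 or more of the 10 arrays of sorted cancer cells. CD163, the haemoglobin scavenger receptor, was so on all 10 with probe A_11_P051196 and on 9 with A_11_P066351. Each of these probes was so on 4 of 10 for the mono-cultured cancer cells. Some markers were often above background in those mono-cultures already: TYROBP on 10 of 10 arrays, CTSS on 9, CD86 on 8 and FCGR1A on 7. The highest marker sum of any sorted cancer cells, 546000 in CMT-U27, exceeded that of every sorted macrophage population, and results are therefore also given without CMT-U27. CLDN3 and ERBB2, the only epithelial markers found by name, were well above background on every array in every culture. Their sums in mono-culture were 4857 to 6450 in the macrophages and 5013 to 20890 in the cancer cells, so that the ranges overlapped. CMT-W1 (20890), CMT-U27 (10351) and P114 (7796) stood above every macrophage sum, and CMT-U309 (5013) and CMT-W2 (5746) did not. CLDN3 was called lower in the cancer cells (-1.65, n = 4, limma adjusted p = 0.0448), where 5.84% of all probes were. ERBB2 was called lower in the macrophages (-0.74, n = 5, limma adjusted p = 0.049), where 25.9% were. Of 12 mesenchymal marker probes (3 genes), 4 rose in the macrophages, 1 of COL1A1 (3.11) and 3 of COL1A2 (3.78 to 4.25), both collagen I chains, against 20.9% of all probes called higher there. In the cancer cells none of 11 tested rose and 1 fell. Their summed signal in the macrophages went from 23270 to 937300 with CMT-U309 and from 9262 to 65403 with P114, where the cancer cells sorted from the same flasks read 770500 and 138835. It was 9438 with CMT-U27, 14760 with CMT-W1 and 17030 with CMT-W2 after co-culture, against 9696, 17220 and 7656 before. Of 4 lymphocyte marker probes, 3 fell in the macrophages, where 25.9% of all probes were called lower. The MS4A1 probe went the other way there, at 2.52 ± 2.78 (SD, n = 5, limma adjusted p = 0.055), and was higher in 4 of 5 co-cultures. Summed lymphocyte signal in the macrophages went from 1589 to 4777 with CMT-W2 and from 1592 to 2273 with CMT-W1, and fell with the other lines. In the cancer cells none of the 2 lymphocyte probes tested was called. The study reported high purity after sorting, and its fluorescence microscopy found no stained cells among the macrophages or unstained cells among the cancer cells. Its confocal microscopy and immunohistochemistry found macrophage antigens in co-cultured cancer cells, and it concludes that these cells came to express them. What share of the results below came from RNA of the other cell type was not tested here. In bulk RNA, fewer cells of a type and less RNA per cell cannot be told apart.

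All 4 ribosomal protein probes were well above background in both channels of all 20 arrays, and none had a saturated spot. The ratio given below divides co-culture by mono-culture on the log2 scale, as the mean of a dye-swap pair, and the error is the SD over the 5 co-cultures. A probe was called at a Benjamini-Hochberg adjusted p under 0.05 in limma's moderated test over all probes tested.

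In the macrophages every ribosomal protein probe was higher after co-culture, by 5.41-fold to 11.6-fold. All 4 probes were called higher, against 46.8% of all 30090 probes called in either direction and 20.9% called higher (25.9% lower), and all 20 values (4 probes in 5 co-cultures) were above 1 on the log2 scale. Over all probes tested, the median log2 ratio was -0.14. RPL23 and RPS18 were already in a gene list that the study drew from these same arrays, so that their direction in macrophages is not independent evidence. RPL27 was not in that list, but it was read on the same arrays, and its macrophage ratios correlated with those of RPL23 at r = 0.99.

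RPS18, a protein of the head of the small subunit, had the highest ratio. Its log2 ratio in the macrophages was 3.38 with CMT-U27, 3.16 with CMT-U309, 2.94 with P114, 4.17 with CMT-W1 and 4.06 with CMT-W2. The mean was 3.54 ± 0.55 (SD, n = 5), an 11.6-fold rise (limma, adjusted p = 0.000142). The macrophages grown with the adenocarcinoma lines CMT-W1 and CMT-W2 stood above the other three.

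RPL23, a large-subunit protein that also binds MDM2 when it is free of the ribosome, had log2 ratios of 2.32 with CMT-U27, 2.36 with CMT-U309, 2.88 with P114, 3.99 with CMT-W1 and 3.70 with CMT-W2. Its mean was 3.05 ± 0.77 (SD, n = 5), or 8.27-fold (limma, adjusted p = 0.00043). CMT-W1 and CMT-W2 were again highest, with no value of the other three above 2.88.

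RPL27, also of the large subunit, was measured by both of its probes. With the 5-spot probe its log2 ratios were 2.06 with CMT-U27, 1.91 with CMT-U309, 2.43 with P114, 3.53 with CMT-W1 and 3.19 with CMT-W2, a mean of 2.62 ± 0.71 (SD, n = 5), or 6.17-fold (limma, adjusted p = 0.000633). The single-spot probe gave 2.43 ± 0.53 (SD, n = 5), or 5.41-fold (limma, adjusted p = 0.000492). The 5 spots of the replicated probe had an SD between 0.0089 and 0.14 in a pair mean, far below the spread between co-cultures, and 1 outlier spot was left out. In each of the 10 populations the 5-spot probe read higher than the single-spot probe, by 0.0073 to 0.60, and the gap was largest in the macrophages grown with CMT-W1. The 2 probes placed the co-cultures in nearly the same order, with CMT-W1 and CMT-W2 highest and CMT-U309 lowest.

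The 2 dye orientations of a pair gave the same sign for all 20 macrophage values, with a median gap of 0.16 between them. The widest gap, 1.33, belonged to RPS18 in the macrophages grown with CMT-W1 (4.83 with the co-culture in Cy5 and 3.5 with it in Cy3).

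In the cancer cells no ribosomal protein probe was called, against 12.1% of all 28648 probes (6.28% higher and 5.84% lower). The methods' t-test called none of the 4, but it called only 6 of all 28648 probes, so that its result says little about these 4. None of the 4 had an unadjusted p under 0.05 in limma, where 9094 of the 28648 probes did. The 4 means lay between 0.43 and 0.71, above the median of -0.014 over all probes. The lines differed: all 4 probes were higher in CMT-U309 (1.59 to 2.02) and in P114 (0.89 to 1.48), whereas the medians over the probes were -0.16 in CMT-U27, 0.066 in CMT-W1 and 0.097 in CMT-W2, and all 4 probes were below 0 in CMT-U27.

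**Figure D1:**
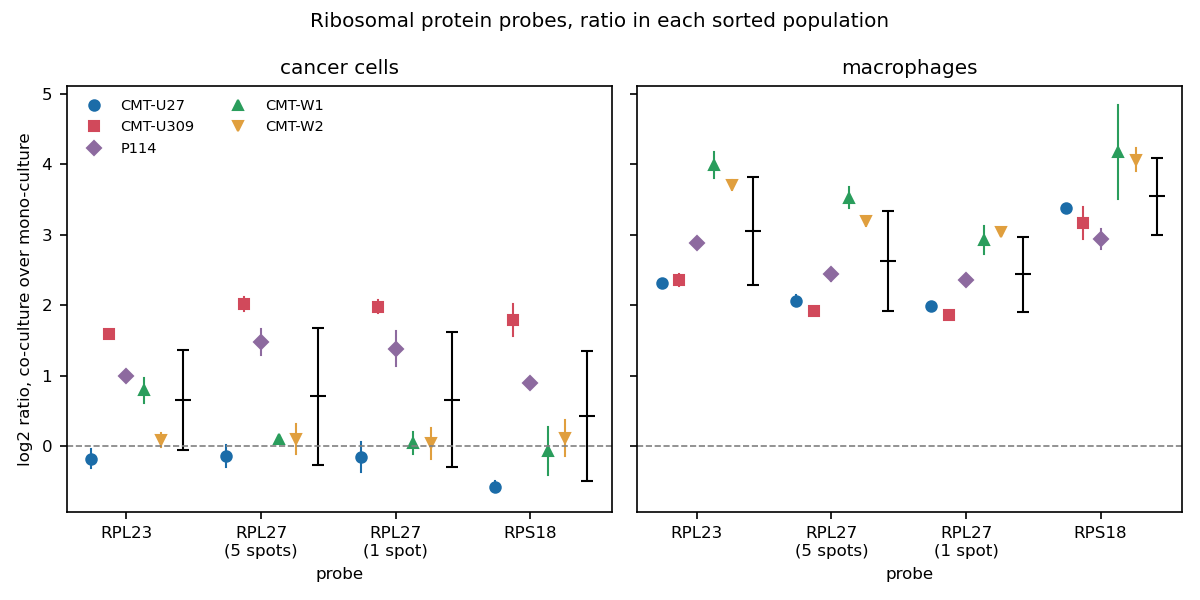
Log2 ratio, co-culture divided by mono-culture (vertical axis), for the 4 ribosomal protein probes (horizontal axis) in the sorted cancer cells (left) and macrophages (right). Each symbol is the mean of the dye-swap pair of 1 cell line, its coloured bar joins the 2 arrays of that pair, and the black bars are the mean ± SD (n = 5); all 20 macrophage values lie above 1, whereas 5 of the 20 cancer cell values lie below 0.

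RPL27 had the highest SD between lines in the cancer cells. Its log2 ratios with the 5-spot probe were -0.14 in CMT-U27, 2.02 in CMT-U309, 1.48 in P114, 0.094 in CMT-W1 and 0.10 in CMT-W2. The mean was 0.71 ± 0.97 (SD, n = 5, limma adjusted p = 0.227), with a 95% interval from -0.15 to 1.57. The single-spot probe gave 0.66 ± 0.96 (SD, n = 5, limma adjusted p = 0.257).

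RPL23 in the cancer cells had log2 ratios of -0.18 in CMT-U27, 1.59 in CMT-U309, 0.99 in P114, 0.79 in CMT-W1 and 0.091 in CMT-W2. Its mean of 0.66 ± 0.71 (SD, n = 5, limma adjusted p = 0.178) had a 95% interval from -0.041 to 1.35. It was the only one of the 4 probes to reach 0.79 in CMT-W1, where the others lay between -0.068 and 0.094.

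RPS18 in the cancer cells had log2 ratios of -0.57 in CMT-U27, 1.79 in CMT-U309, 0.89 in P114, -0.068 in CMT-W1 and 0.12 in CMT-W2, with a mean of 0.43 ± 0.92 (SD, n = 5, limma adjusted p = 0.439). CMT-U27 was the lowest line and CMT-U309 the highest for each of the 4 probes. Of the 20 cancer cell values, 8 changed sign between the dye orientations, and the median gap between orientations was 0.31, so that values close to 0 have no settled direction.

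Without CMT-U27 the cancer cell means were 0.68 (RPS18) to 0.92 (RPL27, 5-spot probe) and again no probe was called, the lowest adjusted p being 0.14 (limma). The lowest adjusted p of any cancer cell probe under any alternative was 0.0673, for RPL23. Without it the macrophage means were 2.55 (RPL27, single-spot probe) to 3.58 (RPS18), and all 4 probes were called.

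The change in macrophages was then tested against the change in cancer cells. All 4 probes had the higher ratio in macrophages and passed the test of the difference itself, against 31% of all 30805 probes (14.5% higher and 16.5% lower in macrophages). The difference was largest for RPS18, at 3.11 on the log2 scale, with a 95% interval from 2.11 to 4.11 (limma, adjusted p = 0.000479). It was 2.39 for RPL23 (limma, adjusted p = 0.00213). It was smallest for the RPL27 probes, at 1.91 and 1.78 (limma, adjusted p = 0.0132 and 0.0135).

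The lowest macrophage value was 2.94 for RPS18 and 2.32 for RPL23, where the highest cancer cell value was 1.79 and 1.59. How often the ranges lay apart over all probes was not counted. For both RPL27 probes the ranges met in a single line, CMT-U309, whose cancer cells had slightly higher ratios (2.02 and 1.98) than the macrophages grown with them (1.91 and 1.86). The RPL27 calls rested on the adenocarcinoma lines: the adjusted p of the 2 probes was 0.0604 and 0.0605 without CMT-W1, and 0.0716 and 0.0749 without CMT-W2 (limma). On raw signals without the lowess step it was 0.101 and 0.11 (limma). Over all alternatives run, the adjusted p of the 5-spot probe ranged from 0.00146 to 0.54. Without CMT-U27 all 4 differences were called.

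Only slide 3 of the 5 slides held both cell types (the cancer cells of CMT-W1 and the macrophages grown with CMT-U27). On that slide the difference between the cell types was 1.53 for RPL23, 1.97 and 1.95 for RPL27 and 3.45 for RPS18. With the slide as a fixed block these were the estimates, and none of the probes was called (limma, lowest adjusted p = 0.281), and none of all 30805 probes was (4183 at an unadjusted p under 0.05).

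The level of each probe in the 4 cultures was read as the normalized log2 signal of each channel, on which a probe may be compared with itself alone. In mono-culture, RPS18 stood at 15.17 ± 0.31 in the macrophages (14.79 to 15.58) and at 17.82 ± 1.43 in the cancer cells (SD, n = 5 each), where the lines read 17.33 (CMT-U27), 16.43 (CMT-U309), 16.71 (P114), 19.72 (CMT-W1) and 18.91 (CMT-W2). The macrophage level was lower by 6.28-fold (limma, adjusted p = 0.00547). All 4 probes were called lower in the mono-cultured macrophages, against 35% of 27374 probes called and 14.6% called lower (20.3% higher). The other differences were -1.83 for RPL23 (limma, adjusted p = 0.00444), and -1.70 and -1.53 for the RPL27 probes (limma, adjusted p = 0.0428 and 0.0395).

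The mono-cultured macrophages varied little: the SD of the 4 probes was 0.074 to 0.31, against 0.87 to 1.44 in the cancer lines. If these macrophages were 1 culture, the p-values of this comparison are too small. Their channels are also the denominator of the macrophage ratios. The p-values of those ratios and of the difference between cell types, and the shares called over all probes, would then leave out spread between mono-cultures. The RPL27 calls were the least firm of this set. In CMT-U309 the cancer cells (15.59 and 15.37) and the macrophages (15.58 and 15.41) read nearly alike. With the co-culture as a replicate block the single-spot probe had an adjusted p of 0.0501 (limma), and both RPL27 probes were lost in turn without CMT-U27, P114, CMT-W1 or CMT-W2 (limma, adjusted p up to 0.173 over all alternatives).

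After co-culture the levels of both cell types lay close together. RPS18 read 18.17 in the macrophages grown with CMT-U27, 18.23 with CMT-U309, 17.98 with P114, 19.75 with CMT-W1 and 19.44 with CMT-W2. The cancer cells sorted from the same flasks read 16.76, 18.22, 17.60, 19.65 and 19.03. None of the 4 probes was called (limma, adjusted p = 0.9999 for each), where 0.00361% of 27735 probes was called, which is 1 probe (763 at an unadjusted p under 0.05). With the co-culture as a replicate block, which pairs the populations of a flask, none of the 4 was called either, at adjusted p of 0.485 (RPL23) to 0.768 (RPL27, 5-spot probe), where 2 of all probes were called (limma, 3080 at an unadjusted p under 0.05). RPS18 read higher in the macrophages in all 5 flasks, by 0.012 to 1.41. The differences, macrophages minus cancer cells, were 0.21 to 0.56, with 95% intervals as wide as -0.86 to 1.78 for RPS18, which reach beyond 2-fold towards the macrophages. Without CMT-U27 the differences were 0.14 to 0.48 and none was called.

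**Figure D2:**
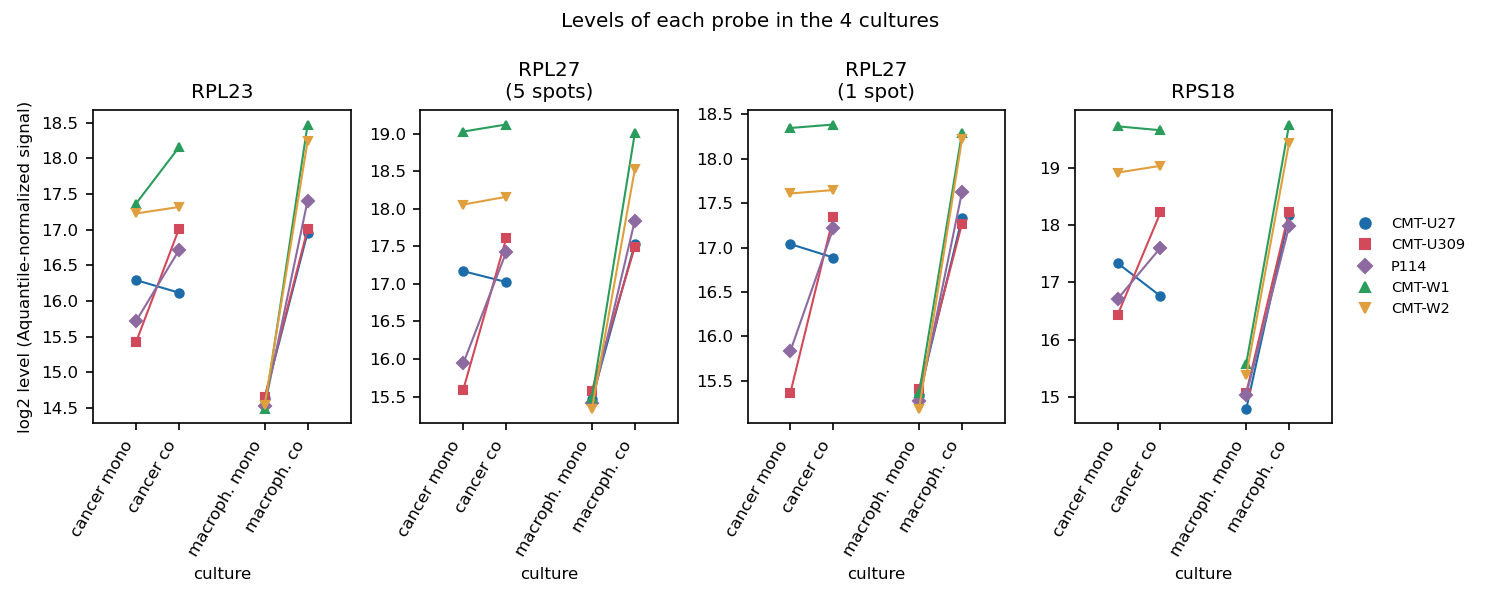
Normalized log2 signal (vertical axis, own scale in each panel) of the 4 probes in the 4 cultures (horizontal axis), with a line joining mono-culture and co-culture of the same pair. The mono-cultured macrophages lie close together at the bottom of each panel, and after co-culture the ranges of macrophages and cancer cells overlap, with the lowest cancer cell value (CMT-U27) below every macrophage value in each panel.

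Flask by flask, the level in the sorted macrophages lay close to that of the cancer cells grown with them. The gap between macrophages and cancer cells was between -4.14 and 0.038 in mono-culture, with the macrophages lower in 19 of 20 comparisons. Within a co-culture it was between -0.12 and 1.41, with the macrophages higher in 15 of 20. These 20 are 4 probes in 5 flasks, and both RPL27 probes read the same gene, so the 20 are not independent. Over all probes, the level was called different for 9575 of 27374 in mono-culture and 1 of 27735 after co-culture (limma). Gaps by flask were not counted over all probes, so the narrowing is not shown to be particular to these genes. The widest gap within a co-culture was that of RPS18 in CMT-U27. For all 4 probes the co-cultured macrophages read highest with CMT-W1 and next with CMT-W2, and this was also the order of the mono-cultured cancer cells of these lines. For RPS18 the mono-cultured macrophages already had this order, at 15.58 on the arrays of CMT-W1 and 15.37 on those of CMT-W2. For RPL23 and RPL27 they read highest on the arrays of CMT-U309. In the co-cultured macrophages the order of the other lines differed between probes. With 5 flasks this is a description and was not tested.

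**Figure D3:**
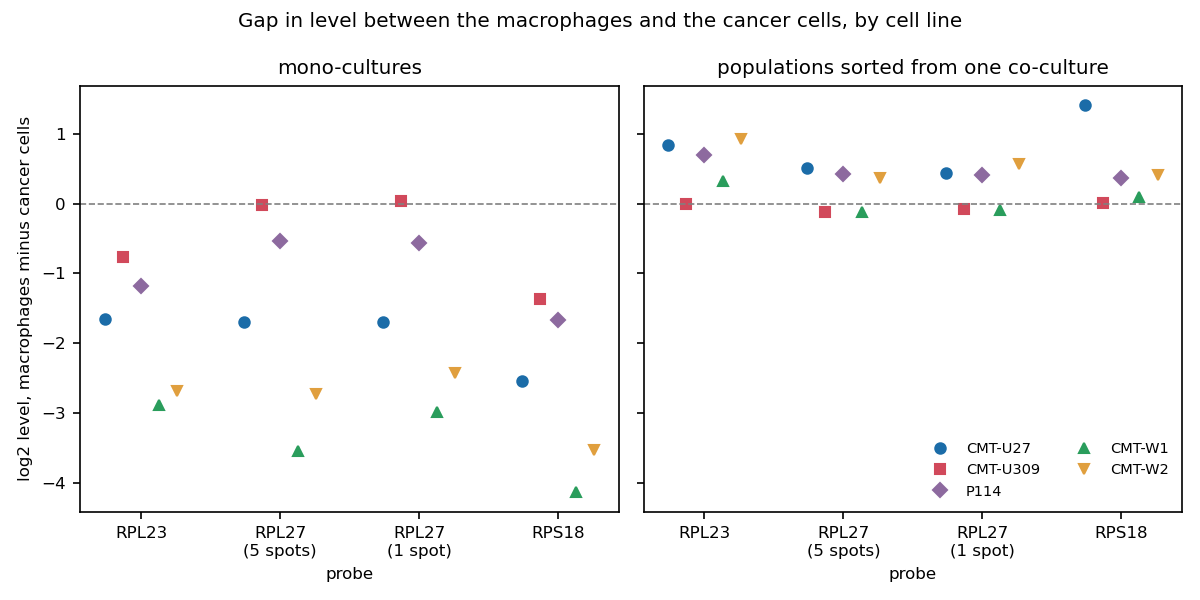
Gap in normalized log2 level, macrophages minus cancer cells (vertical axis), for the 4 probes (horizontal axis) in mono-culture (left) and in the populations sorted from the same co-culture (right), with 1 symbol for each cell line. The gap reaches -4.14 in mono-culture and stays between -0.12 and 1.41 after co-culture.

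The macrophage markers were lower after co-culture in the same macrophages in which the ribosomal protein probes were higher. Their summed signal was 61520 with CMT-W2, 65854 with P114, 67820 with CMT-W1, 136349 with CMT-U27 and 272500 with CMT-U309. CMT-W1 and CMT-W2 had the highest ribosomal protein ratios. P114, with a marker sum between theirs, had the lowest RPS18 ratio and a middle value for RPL23 and RPL27. The lowest ratio was with CMT-U27 for RPL23 and with CMT-U309 for RPL27. The median marker ratio was -5.33 with CMT-W1, -4.64 with CMT-W2, -3.81 with P114, -3.06 with CMT-U27 and -1.78 with CMT-U309. Their part in the ribosomal protein ratios was not tested.

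**Figure D4:**
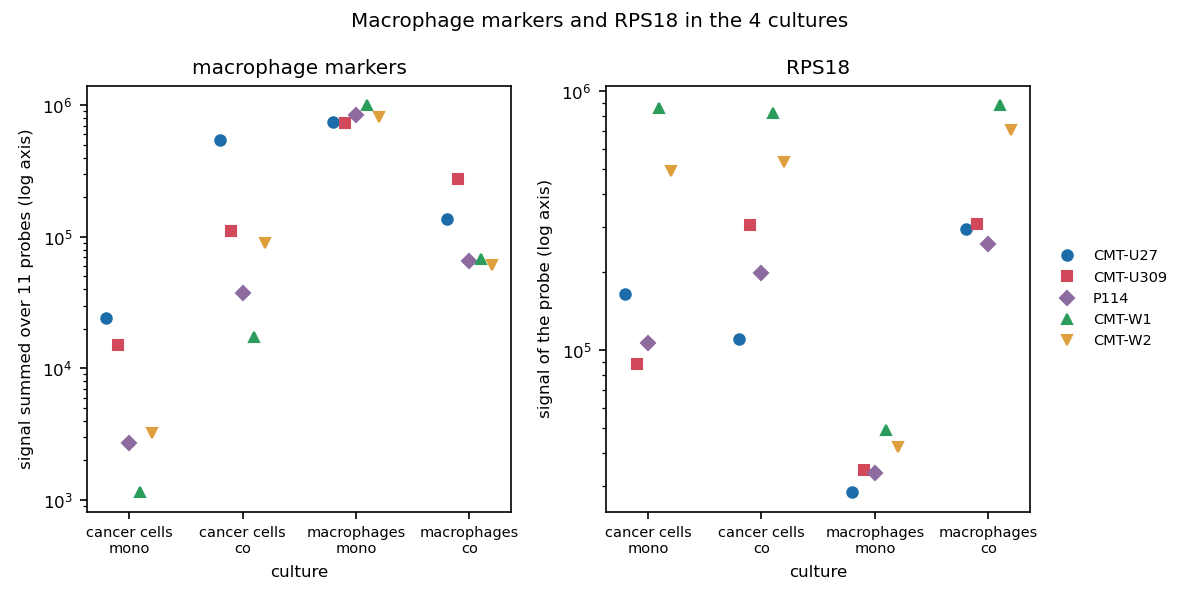
Signal summed over the 11 macrophage marker probes (left) and signal of the RPS18 probe (right) in the 4 cultures, both on a log axis, with 1 symbol for each cell line. After co-culture the marker sums of the sorted cancer cells (17220 to 546000) and macrophages (61520 to 272500) overlap, and RPS18 in the macrophages has left the low range of their mono-culture.

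Other genes of translation were few on the named part of the array. Of the ribosomal proteins outside the name rule (RPLP0, RPSA and others), the mitochondrial ribosomal proteins and the ribosome biogenesis factors, none was found by name. The translation factors were EEF1A1, which brings aminoacyl-tRNA to the ribosome, and the kinases EIF2AK1 and EIF2AK2, which slow initiation. Of their 6 probes, 4 rose in the macrophages (median of the 6, 2.47), where 20.9% of all probes were called higher, and none was called in the cancer cells (median 0.28), where 12.1% of all probes were called. The 4 that rose were all of 1 gene, EEF1A1, with means from 2.42 ± 0.68 to 3.03 ± 1.18 (SD, n = 5 each, limma adjusted p from 0.000518 to 0.00149). EIF2AK1 (-0.39) and EIF2AK2 (-0.16) were not called there.

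Of 17 genes of growth control of ribosome production, MYC alone was found. It was already in the study's macrophage list, drawn from these same arrays. In the macrophages MYC rose by 4.58 ± 0.58 on the log2 scale (SD, n = 5, limma adjusted p = 8.88e-05), between 3.85 and 5.38 in the 5 co-cultures. In the cancer cells its mean was -1.03 ± 0.91 (SD, n = 5, limma adjusted p = 0.0966), with all 5 values below 0, between -2.10 and -0.13.

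Over the 10 sorted populations, the 5 symbols whose ratios followed the median of the ribosomal protein probes most closely, of 644 compared, included PHB (Pearson's r = 0.98), HACD1 (0.945), LOC403555 (0.898) and AK1 (0.891). The 10 points fall into 2 cell types and pairs of them share a flask, so that r also holds the step between cell types. Within the cancer cells alone r was 0.94 (PHB), 0.99 (HACD1), 0.85 (LOC403555) and 0.89 (AK1). Within the macrophages alone it was 0.95, 0.65, 0.72 and 0.31 in the same order, over 5 points in each cell type. PHB, which codes for prohibitin of the inner mitochondrial membrane, had a mean ratio of 2.11 in the macrophages and -0.029 in the cancer cells. HACD1, an enzyme of fatty acid elongation, had 3.86 and 0.55, and AK1, an adenylate kinase, had 3.6 and -0.43. HACD1 was already in the study's macrophage list, under the name PTPLA. The symbols were picked by r over these same 10 populations, so that r within a cell type is not independent of the choice.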

How the data were processed

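RNA was hybridised to 20 two-colour arrays. The authors deposited the output of Agilent Feature Extraction 10.7.3.1 (named in the submitters' processing notes): intensity columns on a linear scale, 0 or 1 spot marks, and a log10 ratio of Cy5 over Cy3 that was corrected for background and normalized for dye (linear and lowess). The value table the authors deposited holds the same log10 ratios turned to co-culture over mono-culture, within 0.0001 on the log2 scale. No column was without a sample. The array intensities give no count or depth, and the number of arrays limits the precision.

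Ratios were turned by the dyes in the labels to log2 of co-culture over mono-culture, without outlier spots, and averaged over spots and then over the pair. Probes that exceeded background well in both arrays of 3 or more of the 5 co-cultures were tested with limma 3.58.1 (R 4.3.3) and adjusted over all of them. Levels per channel came from the deposited processed intensity after Aquantile. Accessions were matched to symbols through RefSeq's gene table (assembly UU_Cfam_GSD_1.0), which named 1648 of 43603 probes. Whether a probe also reads a pseudogene, of which ribosomal protein genes have many, was not checked, and no probe sequence was used here.

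The members, lists and tests were chosen with earlier results of these data known. Named genes were the members, up to 4 genes of each list by size of change, and the 5 symbols most like the members, without 1 member and 1 of these symbols, which are not reported here. The populations sorted from a co-culture share the line and are paired by design: their deviations from the group means correlated at 0.0822 to 0.491 within co-cultures and -0.373 to 0.14 between them. The fits were tested on simulated data. Alternatives were other background correction, centring and scaling, filters, dye orientations, slide and replicate blocks, thresholds, the methods' t-test and each line left out. Figures used Python 3.11.15 and matplotlib 3.10.9.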

Additional observations from a re-analysis of the deposited data

Results flagged for a closer look

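The co-culture to mono-culture ratio was higher in the macrophages than in the cancer cells by 2.39 (RPL23), 1.91 and 1.78 (the RPL27 probes A_11_P050461 and A_11_P184853) and 3.11 (RPS18) on the log2 scale, by limma's test of the difference itself. None of 24 groups of 5 values (4 probes, 2 cell types, ratio and both levels) held a value set apart from the others by Dixon's test, and by chance about 1 in 20 such groups holds one.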

How the results depend on the processing

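The 4 macrophage calls and the 0 cancer cell calls held under every alternative run (with 1 probe per gene, 3 calls of 3), with macrophage means of 2.00 to 3.78 and cancer cell means of 0.092 to 0.92. No member changed direction in any comparison. Of the difference between cell types, 2 probes stayed called on raw signals without lowess (chosen after seeing the data) and at a threshold of 0.01, 0 with the slide as a fixed block, where 1 population of each cell type carries the estimate, and 2 to 4 with 1 line left out (2 without CMT-W1 or CMT-W2). With the co-culture as a replicate block all 4 were. Of the lower levels in mono-cultured macrophages, 2 stayed called with 75th percentile scaling, with no filter on dim probes and at a threshold of 0.01, 3 with the replicate block, and 2 to 4 with 1 line left out (2 without CMT-U27, P114, CMT-W1 or CMT-W2). The cause was not tested. Over all probes, the cancer cell calls ranged from 6 (the methods' t-test) and 71 (normexp and loess) to 8474 (slide as a random block) around 3473, so that 12.1% is a loose background, and the share of them that were higher went from 51.8% to 83.1% with normexp and loess, 96% at a threshold of 0.01, 70.4% without CMT-U27 and 85.2% without P114. For the macrophages they ranged from 7918 (threshold 0.01) to 16419 around 14079, for the difference from 0 to 11393 around 9558, and for the mono-culture levels from 5753 (threshold 0.01) to 11337 (without CMT-W1) around 9575, with 6011 without CMT-W2. Without CMT-U27 or P114 no probe was called for its co-culture level by limma (785 and 849 at an unadjusted p under 0.05). Centring each array moved the macrophage median over all probes from -0.14 to -0.0014, and the share of calls that were higher from 44.6% to 51.9%.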

Other observations

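Of 13 probes of 4 genes often used as references, 5 were called higher in the macrophages after co-culture (median of the 13, 0.62), where 46.8% of all probes were called and 20.9% called higher. None was called in the cancer cells (median 0.56), where 12.1% of all probes were called. The 5 were ACTB, a cytoskeletal actin, with probe A_11_P052831 (1.40 ± 0.29 on the log2 scale; limma, adjusted p = 0.00224) and GAPDH, an enzyme of glycolysis, with 4 of its 7 probes (1.32 to 1.46). The other probes of the same genes gave 0.48 and 0.72 for ACTB and 0.030 to 0.56 for GAPDH and were not called, so that the probes of a gene disagreed in size. HPRT1 had 0.57 ± 1.03 and 0.62 ± 1.10 (SD, n = 5), with 3 of 5 co-cultures higher. GUSB, a lysosomal enzyme, had -0.56 ± 0.29 in the macrophages (SD, n = 5, limma adjusted p = 0.069), with all 5 values below 0, and 1.28 ± 1.51 in the cancer cells (SD, n = 5, limma adjusted p = 0.144). The ribosomal protein means in macrophages, 2.43 to 3.54, lay above all 13.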
